A study of Mus musculus with 8 samples.

Results

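The suppressors of cytokine signalling form a family of 8 genes, Socs1 to Socs7 and Cish, and all 8 were found by gene name among the 41018 genes of the deposited table for CD11b+ bone marrow (BM) cells. The total RNA libraries comprised 4 PC-EV-educated and 4 PBS samples. Female C57BL/6 mice of 5 to 8 weeks were injected into the retro-orbital sinus every other day for 3 weeks, either with extracellular vesicles (EVs) of the mouse pancreatic adenocarcinoma line PAN02 in PBS or with PBS alone, whose samples the labels call untreated. After lysis of red blood cells, CD11b+ cells of the hind limb marrow were isolated on magnetic microbeads. Whether a sequenced sample was a single mouse or a pool is not stated in the labels or the methods, although for qPCR on such cells the study pooled several animals for each point.

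Cytokines act through receptors whose cytoplasmic tails hold Janus kinases. The kinases phosphorylate STAT factors, which enter the nucleus and switch on genes that include those of the SOCS family. A SOCS protein then binds phosphorylated receptors or kinases through its SH2 domain, and its SOCS box recruits elongins and a cullin ubiquitin ligase, which closes a feedback loop. In mice, Socs3 is the member known for restraining signals of granulocyte colony-stimulating factor (G-CSF) and of the interleukin-6 family in neutrophils and macrophages.

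The level used here is the Max group mean, the larger of the averages that the authors computed for PC-EV-educated samples and for PBS samples. The table does not say which group the larger average came from, so every level below is an upper limit for both groups. Shares, ratios and percentiles built from these levels are no such limits and need not hold within either group. Where a gene has a higher Max group mean than another, it also had the higher average in at least 1 of the groups, but the ratio of both values need not hold within either group. No values of single samples were analysed here, so no spread, n or test stands beside a level, and PC-EV-educated and PBS samples are not compared. For genes with very few reads, the level times exonic length took the same 8 values in genes of 42 to 12647 bases, so the level is per length. The 8 values, as many as there are samples, differed by up to 1.27-fold, which is the range of relative depth. By the same values, Socs3 rested on 6937 to 8790 reads over the 4 samples of a group and Socs2 on 48 to 61. Neighbours in the order of levels cannot be said to differ beyond the spread of samples.

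The short stretches that follow are shown because they hold the motifs discussed further on for 3 of the members. They come from the RefSeq promoter windows of build GRCm38.p6 and run 5′ to 3′ on the strand of the gene. Capitals mark STAT motifs (TTCNNNGAA) in Cish and Socs3, and interferon response type motifs (GAAANNGAA) in Socs1.
Cish, chr9:107296654-107296683, plus strand: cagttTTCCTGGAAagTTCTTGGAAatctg
Socs3, chr11:117969487-117969546, minus strand: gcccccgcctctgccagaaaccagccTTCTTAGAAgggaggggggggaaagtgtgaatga
Socs1, chr16:10785587-10785646, minus strand: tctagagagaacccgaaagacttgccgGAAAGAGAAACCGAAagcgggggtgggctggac

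Of the 8 members, 7 reached a Max group mean of 0.1 and 6 reached 1. Over all genes of the table, 34.5% reached 0.1 and 22.5% reached 1. Over protein-coding genes alone, the shares were 52.5% and 39.5%. The family spanned levels of 0.0298 to 14.2, with a median of 1.65 and a sum of 25.9.

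**Figure D1:**
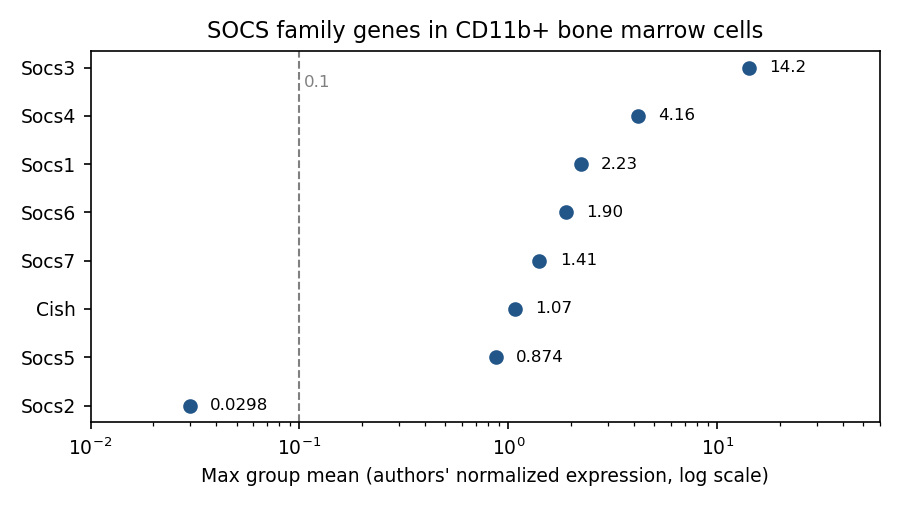
Max group mean of the 8 SOCS family genes (points, log axis; authors' normalized expression, the larger of the averages of PC-EV-educated and PBS samples), with a dashed line at 0.1. Socs3 sits highest at 14.2, 6 members lie between 0.874 and 4.16, and Socs2 lies below the line at 0.0298.

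Socs3 was the most abundant member. Its protein carries a kinase inhibitory region and acts on receptors that use gp130, such as that of interleukin-6, and on the G-CSF receptor. Socs3 (ENSMUSG00000053113, chromosome 11, 117966079 to 117970047, minus strand, GRCm38) had a Max group mean of 14.2. It alone held 54.9% of the summed level of the family, and its level was 3.41 times that of the next member. Among the 14153 genes that reached 0.1, Socs3 lay at the 84.7th percentile, with 2170 genes of the table above it.

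Socs1 is the close relative of Socs3 that also carries a kinase inhibitory region, and it is known for limiting interferon signals. Socs1 (chromosome 16, 10783808 to 10785536, minus strand) had a Max group mean of 2.23, at the 48.8th percentile. The level of Socs3 was 6.38 times as high. The median of these genes was 2.38. The percentile of Socs1 depended on the genes it was ranked among, from 21.4 among genes that reached 1 to 74.3 among genes above 0.

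Cish and Socs2 are feedback genes that STAT5 is known to induce downstream of growth hormone, interleukin-3 and related cytokines. By this level per length, the pair stood at the lower end of the family. Cish (chromosome 9, 107296026 to 107302784, plus strand) had a Max group mean of 1.07, at the 35.9th percentile. Its exonic length over all GENCODE transcripts is 6419 bases, against 2850 in its principal transcript. For Socs1 both lengths are 2908 bases. The place of Cish in the family therefore depends on the length used. Socs2 (chromosome 10, 95385362 to 95417180, minus strand) had a Max group mean of 0.0298. Socs2 therefore averaged no more than 0.0298 in PC-EV-educated samples and no more than 0.0298 in PBS samples, and 17159 genes of the table lay above it. The step between Socs5, the member just above it, and Socs2 was 29.3-fold, the widest between any neighbours in the family. The size of this step also depends on length. The exonic length of Socs2 is 9531 bases against 2222 in its principal transcript, and that of Socs5 is 6416 against 4648. Levels per principal transcript were not computed. In GENCODE vM21 the antisense gene Gm17041, which had a Max group mean of 0.0359, overlaps Cish on the other strand, as does the pseudogene Gm17040. The libraries were stranded, but the sources used here do not say whether the counting used the strand, so the value of Cish may hold reads of these partners. GENCODE also places 3 processed pseudogenes within the bounds of Socs6, 2 of them on its strand, and their part in its value was not tested.

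The 4 members with long N-terminal regions, Socs4 to Socs7, were each measurable. Socs4 and Socs5 are known for acting on the epidermal growth factor receptor, while Socs6 and Socs7 bind insulin receptor substrates, and Socs6 also binds the receptor kinase Kit. Socs4 (chromosome 14, 47276931 to 47296102, plus strand) was second in the family, with a Max group mean of 4.16, at the 61.7th percentile. Socs6 (chromosome 18, 88665224 to 88927481, minus strand) had a Max group mean of 1.90, at the 45.9th percentile. Socs7 (chromosome 11, 97362551 to 97398542, plus strand) had a Max group mean of 1.41, at the 40.4th percentile. The lowest of the 4 was Socs5 (chromosome 17, 87107679 to 87137583, plus strand), at 0.874 and the 32.8th percentile. From Socs4 down to Socs5 the 6 members in the middle of the order covered a 4.76-fold range, and steps between neighbours in it were 1.17-fold to 1.87-fold.

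**Figure D2:**
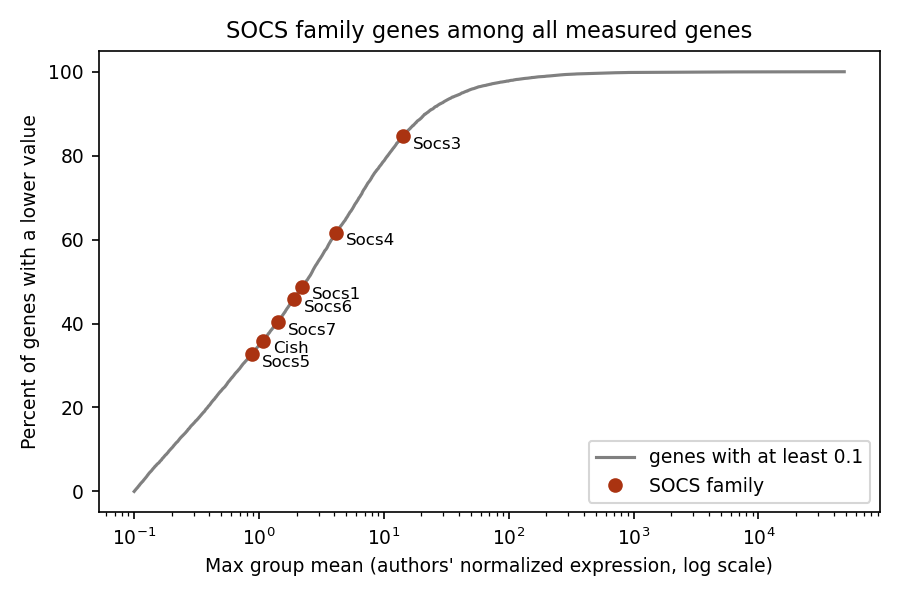
Percent of genes with a lower Max group mean (vertical axis) against Max group mean (horizontal log axis) for the 14153 genes that reached 0.1 (line) and the 7 SOCS family genes among them (points). Socs3 lies at 84.7%, Socs4 at 61.7%, and the other 5 lie between 32.8% and 48.8%.

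Gene structure divided the family in the same way as its known domains. The principal GENCODE transcripts of Socs2, Socs1, Socs3 and Cish encode 198, 212, 225 and 257 codons, while those of Socs4, Socs6, Socs5 and Socs7 encode 436, 533, 536 and 579 codons. The 4 short members held 67.8% of the summed level and the 4 long ones 32.2%. Their medians were however nearly equal, at 1.65 for the short members and 1.65 for the long ones, so the larger sum of the short members rested on Socs3. When each level was multiplied by the exonic length of the gene, which approximates how many reads a gene received, Socs3 remained first with 34.0% of the sum and Socs4 second with 23.7%. Socs6 came next with 17.8%, and Socs1 moved to the sixth place with 5.37%. Socs2 has 14 annotated transcripts and Socs6 has 9, several of them non-coding, so their exonic lengths depend on which transcripts are counted. The same holds for Cish and Socs5, whose exonic lengths of 6419 and 6416 bases exceed the 2850 and 4648 of their principal transcripts.

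RefSeq promoter windows, from 250 bases before to 50 bases after the annotated start, were at hand for 4 of the 8 members: Cish, Socs1, Socs3 and Socs4. The STAT motif TTCNNNGAA, which reads the same way on both strands, was present in 2 of these 4 windows and in 8.30% of all 32851 windows. The Cish window held 2 copies, at bases 1 to 9 and 12 to 20 from the RefSeq start (chromosome 9, 107296659 to 107296667 and 107296670 to 107296678), and 0.457% of all windows held 2 or more. The only exon that GENCODE has at these copies is the first exon of a protein-coding Cish transcript, which begins upstream of the RefSeq start at 107296026. Other GENCODE transcripts of Cish have no exon there. The Socs3 window held 1 copy, starting 154 bases before the RefSeq start (chromosome 11, 117969512 to 117969520). GENCODE has no exon at the printed stretch of Socs3 or of Socs1. The Socs3 stretch nevertheless lies inside the GENCODE bounds of the gene, which starts upstream of it at 117970047. The Socs1 stretch lies upstream of the GENCODE start of that gene, 10785536. Socs1 and Socs4 windows held no copy. A match of letters is a description and does not show that a factor binds there.

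A further pair of motifs was searched on both strands after the sequences had been seen. GAAANNGAA, the core of interferon-stimulated response elements, occurred in the Socs1 window only, as 2 overlapping copies starting 83 and 77 bases before the RefSeq start, against 8.56% of all windows with any copy. The GC box GGGCGG occurred in all 4 windows and in 35.7% of all windows. The windows of Socs3, Socs4 and Socs1 were rich in G and C, at 73.3%, 70.7% and 63.3%, while that of Cish, at 53.3%, was close to the median of all windows, 52.7%. The observed over expected ratio of CpG was 0.908 for Socs4, 0.769 for Socs3, 0.614 for Socs1 and 0.521 for Cish, against a median of 0.384.

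The genes that work upstream of the family mostly lay above its median of 1.65, but fewer of them lay above Socs3. All 4 Janus kinases were above every SOCS gene other than Socs3 and Socs4: Jak1, the kinase shared by gp130 and interferon receptors, had a Max group mean of 48.3. Jak2, which serves the receptors of G-CSF and of granulocyte-macrophage colony-stimulating factor (GM-CSF), had one of 15.4. Tyk2 and Jak3 had levels of 6.77 and 3.37, both below Socs3, and Jak3 was also below Socs4. The 6 STAT factors analysed had a median level of 17.1, which is 10.4 times the median of the SOCS family. Stat6, Stat3 and Stat5b, at 46.1, 24.7 and 21.9, lay above Socs3, while Stat4, Stat2 and Stat5a, at 12.3, 8.68 and 3.55, lay below it.

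Receptor levels ranged from 0.00213 to 251.7. Of 27 receptor genes that signal through Janus kinases, 21 reached 0.1, 10 lay above Socs3, and the median was 6.70. The receptors of the myeloid growth factors led: Csf3r, the G-CSF receptor, had a level of 251.7, or 17.7 times that of Socs3. Csf2ra and Csf2rb, the chains of the GM-CSF receptor, had levels of 108.6 and 66.3. Lowest was Prlr, the prolactin receptor, at 0.00213.

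Other brakes on the pathway were more abundant than most SOCS genes. All 14 of them reached a level of 1, the median was 8.13, and 5 lay above Socs3. Ptpn6, which encodes the phosphatase SHP-1, had a Max group mean of 152.5, Ptprc, which encodes CD45, one of 56.4, and the ubiquitin ligase gene Cbl one of 41.9. The lowest was Cblb at 1.50, which is above the levels of Socs7, Cish, Socs5 and Socs2. For the partners that a SOCS box needs, the list held 11 symbols, of which 2 are older names of Elob and Eloc. All 9 that the table names reached 1, with Elob (elongin B) at 70.7, the ubiquitin-conjugating enzyme gene Ube2d2a at 29.1 and Nedd8, the modifier of cullins, at 18.4. The scaffold Cul5 was the lowest of them, at 1.80.

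Of 27 genes for other proteins with a SOCS box, 14 reached 0.1 and 10 reached 1, compared with 7 and 6 of the 8 SOCS family genes, and their median was 0.140. Wsb1 had a level of 20.3 and was the only one above Socs3, followed by Asb7 at 12.9 and Spsb2 at 6.98. Asb9 and Asb12 were listed at 0. Among 16 genes that STAT factors are known to induce, the median was 18.3 and 9 lay above Socs3. The highest were Junb, an AP-1 factor, at 250.1, Mcl1, a survival protein of granulocytes, at 146.6, and Osm, the cytokine oncostatin M, at 109.8. Pim2, a kinase gene, was lowest at 0.705. The lists of pathway genes were described by counts and medians alone, without a test.

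**Figure D3:**
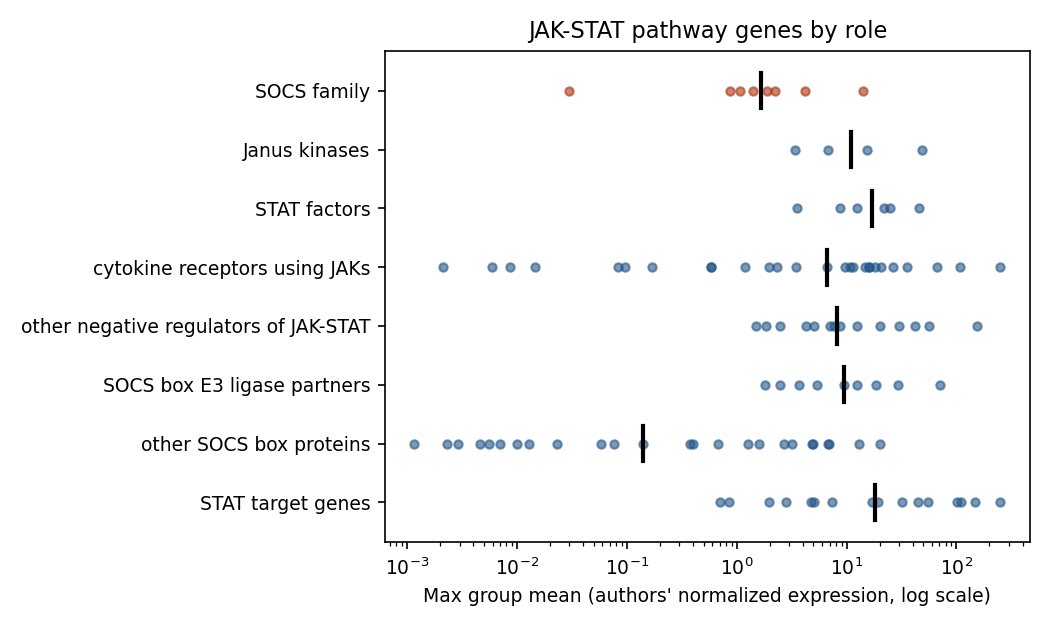
Max group mean (log axis) of each gene in 8 lists, one list per line, with black bars at the list medians; Asb9 and Asb12, listed at 0, are not drawn. The SOCS family median of 1.65 lies below those of the Janus kinases (11.1), STAT factors (17.1), receptors (6.70), other negative regulators (8.13), ligase partners (9.52) and STAT targets (18.3), and above that of the other SOCS box proteins (0.140).

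The cell fraction was mainly granulocytic by its transcripts. All 11 neutrophil markers lay above Socs3, with Max group means of 177.5 for Cxcr2 to 42151 for S100a9. The 6 monocyte markers ranged from 24.6 to 188.7 and the 8 macrophage markers from 2.66 to 62.6. Markers of other lineages were detected as well: B cell markers reached 3.54, T cell markers 1.97, natural killer cell markers 17.1 and erythroid markers 26.7. The medians of these lists were 0.310, 0.0806, 0.560 and 0.520, against 35.4 for monocyte and 20.6 for macrophage markers. The lists overlapped: the highest B cell, natural killer cell and erythroid markers each lay above the lowest macrophage marker. The highest erythroid marker also lay above the lowest monocyte marker, at 26.7 against 24.6. Monocyte and macrophage markers overlapped over much of their ranges, and the highest monocyte marker, at 188.7, lay above Cxcr2. In bulk samples, fewer cells of a type and less RNA per cell cannot be told apart, and which cells carried the SOCS transcripts was not tested. Itgam, the gene of CD11b, was not analysed here.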

How the data were processed

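RNA of CD11b+ BM cells was sequenced by the authors from ribosomal-RNA-depleted, stranded libraries of 4 PC-EV-educated and 4 PBS samples, and mapped to GRCm38. The submitters' processing notes name edgeR. For the aligner, annotation release and software version, the sources used here give no name. The deposited table gives a Max group mean for each gene, a fold change, a p-value and adjusted p-values of the authors' comparison. Only the Max group mean was used; the columns of the comparison were not. Its unit is not named. It sums to 404642, and to 770011 after multiplication by exonic length in kb (GENCODE vM21, 40934 of 41018 gene IDs); neither sum settles the unit. The product of level and length in bases, rounded to 4 decimals, took 8 values in 4277 genes with the fewest reads (5.92 at most, each in over 100 genes), so each is the value of 1 read in 1 sample and the level is per length. The steps give the depth of the samples relative to each other, not the absolute depth. A value of 0 was listed for 12793 genes.

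Levels were described without a test, ranked among genes with at least 0.1. A separate file of genes selected by the authors was not used. Promoter windows were from RefSeq (GRCm38.p6). The genes named are the 8 members, the Janus kinases, 6 STAT factors, Csf3r, and the 3 highest and the lowest of each list; marker genes at the ends of a range, the other genes at 0 and the overlapping genes were chosen after their values were seen. An item that the naming rule covers is not reported here. Members and lists were chosen with earlier results of these data known. Ranking and motif search were tested on simulated data. The tools were scipy 1.17.1, numpy 2.4.6, pandas 2.3.3 and Python 3.11.15.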

Additional observations from a re-analysis of the deposited data

How the results depend on the processing

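The count of SOCS genes above the floor was 7 with a floor of 0.1, 6 with a floor of 1 and 8 without one. No setting used the length of the principal transcript, so whether Socs2 would reach 0.1 on that length was not tested. The median percentile of the 6 members with at least 1 was 47.3 among genes with at least 0.1, 73.6 among genes above 0 and 19.2 among genes with at least 1. It was 37.9 among protein-coding genes with at least 0.1, a setting chosen after seeing the data. These shifts follow from the genes that each setting admits. The share of Socs3 in the summed level was 54.9% as deposited, 34.0% after multiplication by exonic length and 30.7% on the log2(value + 1) scale. Socs3 remained highest after multiplication by length. The log2 scale cannot change the order of members. The count of promoter windows with a STAT motif was 2 of 4, 1 with the 250 bases before the start alone, and 0 with 4 bases between the arms of the motif. Protein identity between members was not run. No paired analysis was possible because the level analysed here is a single value per gene; for the same reason no sample could be left out.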
